A study of Mus musculus with 4 samples.

Results

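Dusp1, Dusp2, Dusp4, Dusp5, Dusp6, Dusp10, Spry1, Spry2, Spred1 and Spred2 encode inhibitors of MAP kinase signalling, and their expression was compared between CD4 T cells with and without Gpr15 expression in the mouse large intestine. The 10 genes were taken by name from the 18193 genes that the arrays measured through probe sets with 1 gene symbol, and all 10 were found. They were covered by 23 of 34945 such probe sets, and the brightest probe set of a gene, by its mean on the log2 scale described below, stands for that gene. All 10 representatives passed the filter on dim genes, as did 12252 genes in all.

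Every sample came from mice of mixed 129/B6 background, heterozygous for a GFP (green fluorescent protein) knock-in at the Gpr15 locus, so that both fractions carried the reporter. Gpr15 is a G protein-coupled receptor that T cells use to home to the colon. CD4 T cells were released from the lamina propria, the tissue layer under the gut epithelium, by collagenase digestion and sorted by GFP. There were 2 Affymetrix arrays of GFP-positive cells and 2 of GFP-negative cells, with a replicate 1 and a replicate 2 in each fraction, and the comparison asks what distinguishes cells with Gpr15 from cells lacking it. Neither the age of the mice nor the number of mice per sample is given in the labels, and p-values therefore reflect how far these 4 samples vary. Signals of Xist, a gene expressed in females, showed that replicate 1 and replicate 2 of each fraction came from mice of different sex. The spread within a fraction therefore mixes differences between mice, sex included, with technical variation.

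MAP kinases (ERK, p38 and JNK) are switched on by phosphorylation of a threonine and a tyrosine, and the dual-specificity phosphatases (DUSPs) switch them off by removing both phosphates. Many DUSP genes are themselves induced by MAP kinase activity, so that they act as negative feedback. Sprouty and Spred proteins act further upstream and restrain the activation of Ras and Raf that leads to ERK. In T cells this pathway runs downstream of the T cell receptor.

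Of the 10 genes, Dusp4 was about 3-fold brighter in GFP-positive cells and Spry1 1.86-fold dimmer, both after 16 was added to each signal. Dusp6, Spred1 and Dusp10 were dimmer by smaller amounts, and the other 5 differed little. Differences below are GFP-positive minus GFP-negative on the log2(signal + 16) scale, which understates the change of dim genes, with 95% intervals from limma fitted over all 12252 genes. None of the 10 genes passed an adjusted p of 0.05, a mark that 0.0326% of all tested genes (4 genes) passed. That count of 4 was 0 when any 1 array was left out and under each of the 3 other normalizations. At an unadjusted p under 0.05, Dusp4 was higher and Spry1 lower, 2 of 10 genes, where 14.6% of all tested genes were past that mark (10.2% higher and 4.37% lower, or 1247 and 536 genes, which became 491 and 1697 with arrays scaled to the same median). Both arrays of one fraction lay on the same side of both arrays of the other for 7 of 10 genes, Dusp4 above and 6 below, where 47.4% of all tested genes lay apart, 28.7% above and 18.7% below. The difference was below 0 for 6 of 10 genes and for 42.3% of all tested genes. The median difference of the 10 genes was -0.14, and that of all tested genes was 0.07.

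**Figure D1:**
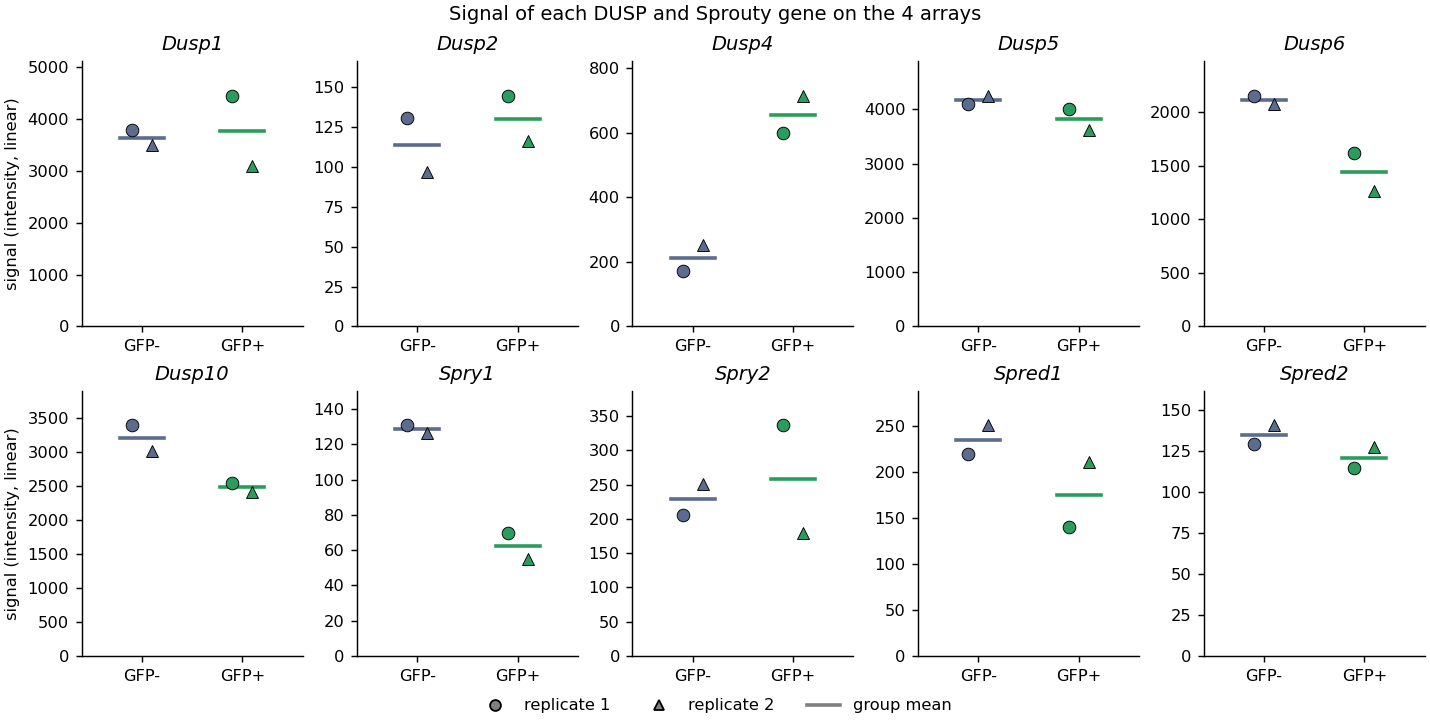
Signal (linear intensity, each vertical axis starting at 0) of the representative probe set of each gene on the 4 arrays, by fraction (GFP- negative, GFP+ positive); circles are replicate 1, triangles replicate 2 and bars group means of 2 arrays. The GFP-positive arrays lie above the GFP-negative ones for Dusp4, below them for Dusp5, Dusp6, Dusp10, Spry1, Spred1 and Spred2, and the fractions overlap for Dusp1, Dusp2 and Spry2.

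Promoter sequence is shown for 4 of the genes: Dusp1 and Dusp5, which were bright in both fractions and hold letters of factors that kinase signalling acts on, and Spry1 and Dusp6, the genes with the 2 largest negative differences. RefSeq promoters were matched by symbol for 9 of the 10 genes, all but Dusp4. Each line gives the 250 bases before the annotated start, 5′ to 3′ on the strand of the gene, in build GRCm38.p6. The windows are chr17:26508473-26508722, minus strand for Dusp1, chr19:53528895-53529144, plus strand for Dusp5, chr3:37639697-37639946, plus strand for Spry1 and chr10:99262981-99263230, plus strand for Dusp6. Capitals mark matches, on either strand, to the cyclic AMP response element TGACGTCA, its core TGACG, the AP-1 site TGANTCA, the ETS site CCGGAAG, the forkhead site TGTTTAC and the serum response element (CArG box).
Dusp1: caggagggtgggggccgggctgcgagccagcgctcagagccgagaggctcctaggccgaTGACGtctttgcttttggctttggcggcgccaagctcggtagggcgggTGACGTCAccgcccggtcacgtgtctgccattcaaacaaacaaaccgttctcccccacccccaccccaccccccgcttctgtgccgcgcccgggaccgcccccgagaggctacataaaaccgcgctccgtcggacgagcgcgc
Dusp5: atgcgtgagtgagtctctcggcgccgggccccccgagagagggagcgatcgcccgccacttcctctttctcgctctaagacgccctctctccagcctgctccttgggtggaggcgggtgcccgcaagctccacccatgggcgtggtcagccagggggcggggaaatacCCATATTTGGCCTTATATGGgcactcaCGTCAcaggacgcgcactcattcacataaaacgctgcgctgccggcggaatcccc
Spry1: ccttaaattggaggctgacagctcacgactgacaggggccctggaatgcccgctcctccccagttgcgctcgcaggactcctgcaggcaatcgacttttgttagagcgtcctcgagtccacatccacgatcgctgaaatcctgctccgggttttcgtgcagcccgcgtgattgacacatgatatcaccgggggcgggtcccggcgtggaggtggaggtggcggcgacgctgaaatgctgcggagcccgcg
Dusp6: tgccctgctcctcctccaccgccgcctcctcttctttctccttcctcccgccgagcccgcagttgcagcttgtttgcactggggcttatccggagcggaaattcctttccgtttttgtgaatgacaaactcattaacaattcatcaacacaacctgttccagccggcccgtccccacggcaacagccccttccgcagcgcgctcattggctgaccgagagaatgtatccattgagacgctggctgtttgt

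The full cyclic AMP response element was found in the Dusp1 window only of the 9, from base -143 to base -136 before the start, and 1.55% of 32851 RefSeq promoter windows of that length hold it. The core TGACG, which overlaps the full element, was found in Dusp1, Dusp5 and Spred2, and in 17.8% of all windows. The Dusp5 window held 2 adjacent CArG boxes, the motif of serum response factor, at bases -82 to -73 and -72 to -63, and 1.47% of all windows hold at least 1. No AP-1, ETS or forkhead letters were found in the 9 windows, while 6.75%, 6.91% and 3.17% of all windows hold them. The NFAT core GGAAA, searched but not marked, was found in 5 of the 9 windows, Dusp5 and Dusp6 among them, and in 55.6% of all windows. The E-box CACGTG, also unmarked, was found in Dusp1 and Dusp2, and in 6.02% of all windows. A match describes the letters only, and absence says only that these letters are not in this window.

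Before the genes are taken in turn, the samples themselves were checked. Gpr15 followed the sort, with signals of 146 and 162 on the GFP-negative arrays and 619 and 729 on the GFP-positive arrays. The T cell genes Cd3e and Cd4 differed by -0.16 (-0.67 to 0.36) and -0.01 (-0.54 to 0.51; the sign of Cd4 turns under quantile normalization). Xist, expressed from the inactive X chromosome of females, was at 4172 and 4313 on the replicate 1 arrays and at 55.1 and 112 on the replicate 2 arrays, so that the replicate numbers differ in sex. They also differ in a poly-A control RNA, DapX-3, with signals of 8.59 and 53.3 for replicate 1 but 1581 and 1285 for replicate 2. For both reasons differences within each number are given beside the pooled ones. For RNA integrity, the log2 ratio of the 3′ to the 5′ Actb control was 1.375 and 2.2 on the GFP-negative arrays, against 1.967 and 2.292. The same ratio for Gapdh was 0.381 and 0.555 against 0.623 and 0.465. The median signal was 36.1 to 37.0 on the GFP-negative and 45.2 to 46.0 on the GFP-positive arrays. Scaling the arrays to the same median moved the median of all tested genes by -0.27, while quantile normalization moved it by -0.06. Markers of other cells were uneven between arrays. All 9 tested of 14 myeloid markers had a positive difference, as had 7069 of all 12252 tested genes. The 14 summed to 311 and 499.7 in GFP-negative cells against 476 and 1749.5 in GFP-positive cells. The 12 epithelial markers summed to 758 and 859 against 3095 and 646, the latter 2 being GFP-positive replicate 1 and replicate 2, and 12 stromal and endothelial markers to 575 and 1286 against 784 and 1125. B and plasma cell markers summed to 4101 and 4774 against 6641 and 4493, most of it from the single gene Jchain (3852 and 4455 against 6219 and 4093). Mast cell markers summed to 215 and 171 against 284 and 391, with Kit alone at 64.4 and 26.5 against 98.1 and 270. CD8 T cell markers summed to 76.9 and 61.4 against 64.4 and 84.7. In such sorted samples, fewer cells of a type and less RNA per cell cannot be told apart.

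Dusp4 (chr8:34807610-34819894, GRCm38.p6 by RefSeq, as for the loci below) encodes MKP-2, an inducible phosphatase of the nucleus that acts on ERK and JNK. Its signal was 170.1 and 251 on the GFP-negative arrays and 597 and 714 on the GFP-positive arrays, replicate 1 first. Both GFP-positive arrays were far above both GFP-negative arrays, and the fractions did not overlap. The means were 211 ± 57.5 and 656 ± 82.6 (SD, n = 2 each), a difference of 1.58 (95% interval 0.93 to 2.24), which was 1.72 within replicate 1 and 1.45 within replicate 2. By size, 0.816% of all tested genes had a larger difference. limma gave an unadjusted p of 0.00118 and an adjusted p of 0.149, so Dusp4 did not pass over all genes. The adjusted p passed in 2 of 15 alternative fits, at 0.0150 with a pseudocount of 64 and 0.00772 when limma let the spread vary with brightness and damped outlying genes, and it lay between 0.0577 and 0.381 in the other 13. The difference itself lay between 1.28 and 1.85 in all 15. Dusp4 was the 1 gene of the 10 that differed at least 2-fold with groups apart, where 4.71% of all tested genes did (3.40% higher and 1.31% lower; 164 genes higher and 406 lower after scaling to the same median, against 416 and 161 as deposited).

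Most markers of regulatory T cells, the suppressive CD4 lineage, had differences of the same sign as Dusp4. Of 9 tested markers 7 had a positive difference, as had 7069 of all 12252 tested genes, and the median of the 9 was 0.86. The list summed to 9780.3 and 9708 in GFP-negative against 17281 and 14999 in GFP-positive cells. None of the 9 passed the adjusted p by limma, and at an unadjusted p under 0.05 there were 6 higher and 1 lower. Of all tested genes, 10.2% were higher and 4.37% lower at that mark. Foxp3, the lineage factor, was at 76.6 and 72.2 against 441 and 472. The 2 markers with negative differences, named after their values were seen, were Izumo1r (-0.96, at 554 and 775 against 304 and 356) and Gpr83 (-0.56). The part of regulatory T cells in the Dusp4 difference was not tested. Myeloid markers summed highest in GFP-positive replicate 2, and leaving that array out gave a Dusp4 difference of 1.46. Epithelial markers summed highest in GFP-positive replicate 1, and leaving that one out gave 1.71. Epcam, an epithelial marker, was higher on both GFP-positive arrays (246 and 175 against 72.3 and 42.5), so that leaving out 1 array does not remove it. The part of myeloid and epithelial RNA in the Dusp4 difference was not tested.

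The genes whose profile over the 4 arrays lay nearest to that of Dusp4, by Euclidean distance between log2(signal + 16) values after each gene's mean was subtracted, were Hhip, Adam12 and Tctex1d2. Hhip, a membrane protein that binds hedgehog ligands, lay at a distance of 0.19, with signals of 7.80 and 15.5 against 65.2 and 86.9. Hhip passed the filter on dim genes only through its GFP-positive arrays. Adam12, a membrane metalloprotease, lay at 0.20, with signals of 32.2 and 58.8 against 139 and 152. Tctex1d2, a dynein light chain, lay at 0.22, with signals of 33.2 and 56.9 against 130 and 149. The other 3 probe sets of Hhip were below the filter on dim signals and differed by 0.65, 0.08 and -0.55. Those of Adam12 and Tctex1d2 differed by 0.79 and 1.85, from GFP-negative signals of 24.7 and 28.7, and of 7.24 and 31.4. Within a distance of 0.5 there were 57 tested genes, and 4 arrays do not separate these profiles further.

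Spry1 (chr3:37639947-37644599) encodes Sprouty1, an inhibitor of the Ras to ERK route that is also known to restrain T cell receptor signalling. Its signal was 131 and 126 on the GFP-negative arrays and 69.6 and 54.9 on the GFP-positive arrays. The fractions lay clearly apart, with GFP-negative arrays close to each other. The means were 129 ± 3.07 and 62.2 ± 10.4 (SD, n = 2 each), a difference of -0.89 (-1.43 to -0.35), which was -0.78 within replicate 1 and -1.01 within replicate 2. limma gave an unadjusted p of 0.00727 and an adjusted p of 0.227, and 7.02% of all tested genes had a larger difference in size. The adjusted p lay between 0.116 and 0.454 in all 15 alternatives, and the difference lay between -1.16 and -0.61. Spry1 therefore ran opposite to Dusp4 in each of these fits, and its promoter, printed above, held none of the marked letters.

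Spry2 (chr14:105891947-105896819), which encodes the related Sprouty2, did not differ in a steady direction. Its signal was 206 and 251 on the GFP-negative arrays and 336 and 179 on the GFP-positive arrays. The highest and the lowest array were both GFP-positive, so the fractions overlapped. The difference was 0.11 (-0.72 to 0.93), with 0.67 within replicate 1 and -0.45 within replicate 2 (adjusted p = 0.916 by limma), and it turned to -0.19 when arrays were scaled to the same median. The array of highest Spry2, GFP-positive replicate 1, also had the highest epithelial marker sum, 3095 against 646 to 859 on the other arrays, and the part of epithelial RNA was not tested. Without that array Spry2 differed by -0.32. A second Spry2 probe set was below the filter, at 5.03 to 18.7.

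Spred1 and Spred2 encode EVH1-domain proteins that bind neurofibromin, a brake on Ras, and bring it to the membrane. The signal of Spred1 (chr2:117121071-117182279) was 219 and 251 in GFP-negative cells against 140.3 and 210.3 in GFP-positive cells. The fractions lay apart, but the upper GFP-positive array came close to the lower GFP-negative one. The difference was -0.41 (-1.06 to 0.24), with -0.59 within replicate 1 and -0.24 within replicate 2 (adjusted p = 0.525 by limma). Of the 8 Spred1 probe sets, 2 were below the filter on dim signals. Of the other 6, 5 had negative differences between -0.43 and -0.27 and 1 a positive one of 0.56, so that the gene's probe sets did not all run the same way. Without GFP-positive replicate 1 the difference of the representative was -0.15.

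The signal of Spred2 (chr11:19924442-20024026) was 129 and 140.5 in GFP-negative cells against 114 and 127 in GFP-positive cells. These lay apart by a small gap, and the difference was -0.14 (-0.66 to 0.38, adjusted p = 0.798 by limma). It was -0.15 within replicate 1 and -0.13 within replicate 2. Of its 5 probe sets 1 was below the filter, and the other 4 differed by -0.46 to 0.23, with 3 negative and 1 positive. Spred1 and Spred2 therefore showed differences smaller than their intervals.

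**Figure D2:**
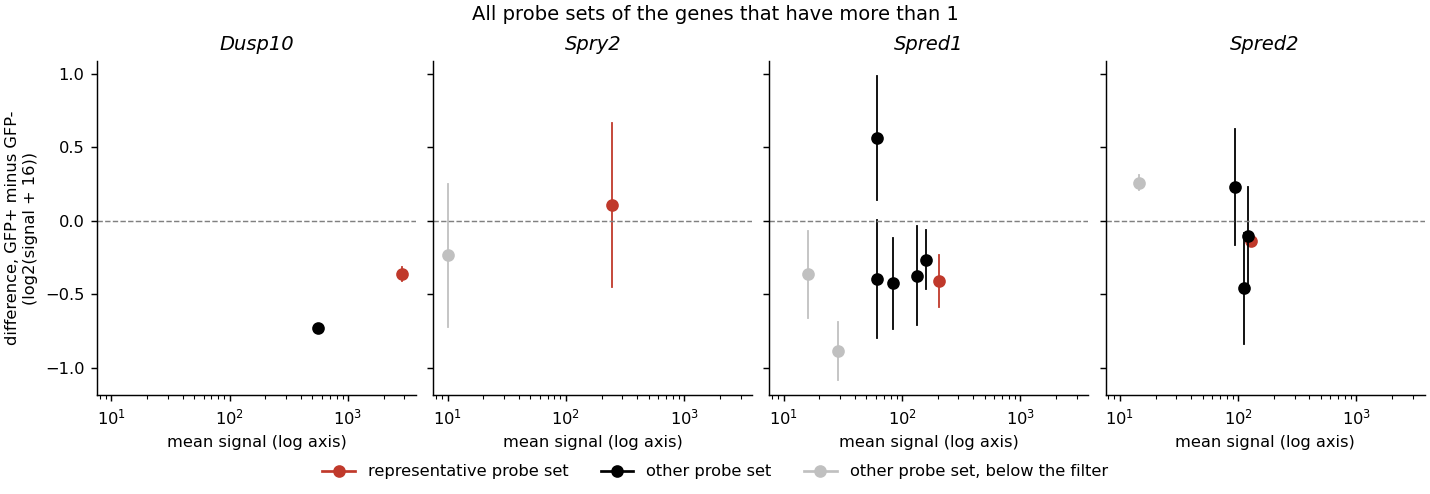
Difference between fractions (log2(signal + 16), vertical) against mean signal over the 4 arrays (horizontal, log axis) for every probe set of the 4 genes that have more than 1; points are pooled differences and lines span the values within replicate 1 and replicate 2. Both Dusp10 probe sets lie below 0, at -0.37 and -0.73, while those of Spred1 and Spred2 lie on both sides of 0.

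Among the phosphatases that favour ERK, Dusp6 had the largest negative difference. Dusp6 (chr10:99263231-99267489) encodes MKP-3, a cytoplasmic phosphatase specific for ERK and a common readout of ERK activity. Its signal was 2156 and 2077 on the GFP-negative arrays and 1619.7 and 1268 on the GFP-positive arrays. Both GFP-positive arrays were below both GFP-negative ones. The means were 2117 ± 56.3 and 1444 ± 249 (SD, n = 2 each), a difference of -0.56 (-1.12 to 0.01), with -0.41 within replicate 1 and -0.71 within replicate 2. limma gave an unadjusted p of 0.0527 and an adjusted p of 0.345, and the difference lay between -0.87 and -0.38 in all 15 alternatives.

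Dusp5 (chr19:53529145-53541809), a nuclear phosphatase specific for ERK whose promoter held the 2 CArG boxes, was among the bright genes in both fractions. Its signal was 4089.5 and 4249 on the GFP-negative arrays and 4001 and 3626 on the GFP-positive arrays. The gap between fractions was smaller than the spread within the GFP-positive fraction. The difference was -0.13 (-0.65 to 0.39), with -0.03 within replicate 1 and -0.23 within replicate 2 (adjusted p = 0.819 by limma). Dusp2 (chr2:127336159-127338377) encodes PAC-1, a nuclear phosphatase of haematopoietic cells, and its signal was 131 and 96.7 against 145 and 116. The fractions overlapped, and the difference was 0.18 (-0.43 to 0.79, adjusted p = 0.782 by limma), with 0.13 within replicate 1 and 0.23 within replicate 2. It turned to -0.10 when arrays were scaled to the same median and to -0.01 without GFP-negative replicate 2. On the log2(signal + 16) scale the intervals of both genes exclude a 2-fold difference in either direction, but the upper limit for Dusp2 was 1.13 without GFP-negative replicate 1 and 1.14 without GFP-positive replicate 2, which include it.

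Dusp10 and Dusp1 encode phosphatases that favour p38 and JNK. The signal of Dusp10 (MKP-5; chr1:184034381-184075636) was 3387 and 3016 in GFP-negative cells against 2539 and 2416 in GFP-positive cells. The fractions lay apart, and the difference was -0.37 (-0.89 to 0.16), with -0.41 and -0.32 within replicates 1 and 2 (adjusted p = 0.483 by limma). A second Dusp10 probe set, with signals of 699 and 709.6 against 417 and 420.0, lay further apart. Its difference was -0.73 (-1.25 to -0.21) in a fit with 1 row per probe set, with an unadjusted p of 0.0140 and an adjusted p of 0.284. The mean of both probe sets gave -0.55, with an adjusted p of 0.272 by limma.

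Dusp1 (chr17:26505591-26508472) encodes MKP-1, an immediate-early gene induced by stress, glucocorticoids and T cell activation. Its signal was 3779 and 3495 on the GFP-negative arrays and 4450.4 and 3092 on the GFP-positive arrays. The highest and the lowest value were both GFP-positive, so that the fractions overlapped, and the difference was 0.03 (-0.61 to 0.67; adjusted p = 0.972 by limma). It was 0.23 within replicate 1 and -0.18 within replicate 2, and it turned to -0.29 when arrays were scaled to the same median. A list of 18 genes known to respond to tissue dissociation summed to 40723 and 42278 in GFP-negative cells against 40342 and 32563 in GFP-positive cells. Of these 18 genes 8 are also among the ERK target genes described below. GFP-positive replicate 2 was lowest for that sum and for Dusp1, but also for T cell identity genes and for cre-3, a control added to the labelled sample (10971 against 11870 to 13566). The part of dissociation stress was not tested.

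**Figure D3:**
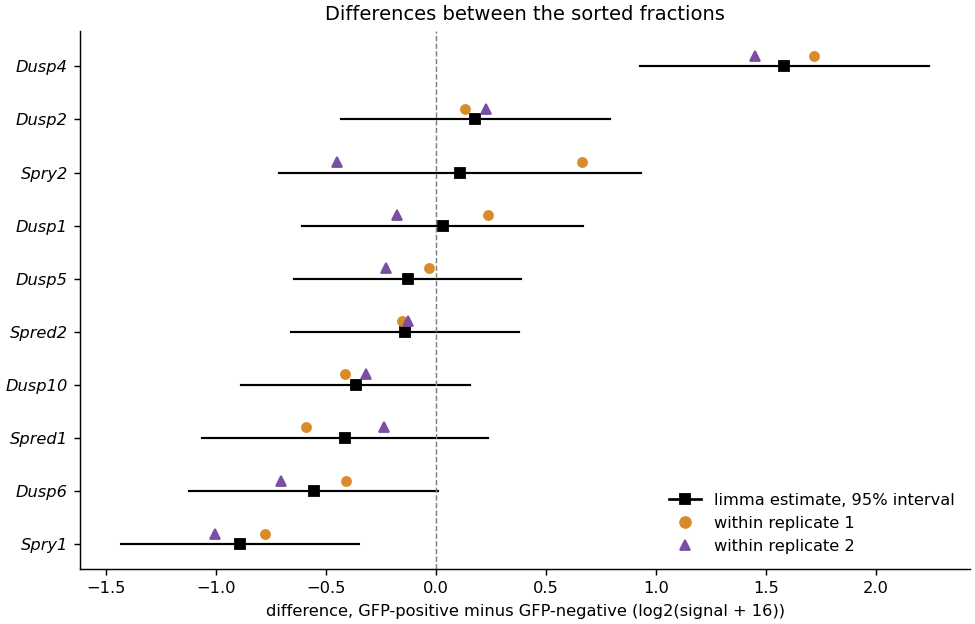
Difference between fractions for the 10 genes (horizontal, log2(signal + 16), GFP-positive minus GFP-negative); squares and lines are limma estimates with 95% intervals, circles the difference within replicate 1 and triangles within replicate 2. The intervals of Dusp4 (0.93 to 2.24) and Spry1 (-1.43 to -0.35) lie off 0 and those of the other 8 genes include it, while Dusp1 and Spry2 change sign between the replicate numbers.

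The rest of the pathway was followed through lists of genes by role. Of 13 tested other DUSP phosphatases 9 had a positive difference, with a median of 0.24 (0.04 after scaling to the same median), and 0 passed the adjusted p by limma. At an unadjusted p under 0.05 Dusp16, Dusp3 and Dusp15 were higher and Dusp19 was lower. Over all tested genes 10.2% were higher and 4.37% lower at that mark, and 42.3% had a negative difference. Dusp16 (MKP-7), a phosphatase of JNK and p38, had signals of 231 and 103 against 390.3 and 353, a difference of 1.17 (0.25 to 2.10). Its other probe set, at 98.4 and 54.6 against 116 and 82.2, differed by 0.34 and overlapped between fractions. Dusp3, Dusp15 and Dusp19, named after their values were seen, differed by 0.84, 0.74 and -0.72. Dusp15, at 26.7 and 23.2 against 40.8 and 66.3, passed the filter on dim genes only through its GFP-positive arrays. Of the other probe sets above the filter on dim signals, that of Dusp3 differed by 1.45 and those of Dusp19 by 0.38 and -0.30. That Dusp3 probe set, at 19.0 and 12.7 against 65.7 and 75.9, also passed the filter only through its GFP-positive arrays. A further probe set of Dusp3 and the other one of Dusp15 were below that filter and bear on neither gene.

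The other Sprouty and Spred proteins and their partners showed small differences. Spry3, Spry4 and Spred3 were below the filter on dim genes, so Spry1, Spry2, Spred1 and Spred2 were the measurable members of the family. Of the 7 tested partners, which include the adaptor Grb2 and neurofibromin (Nf1), 5 were positive and the median was 0.23, which turned to -0.08 after scaling to the same median. None passed the adjusted p by limma, and 0 had an unadjusted p under 0.05, a mark that 14.6% of all tested genes passed. Nf1, which Spred proteins recruit, was named outside the rule given below. It had signals of 98.04 and 98.1 against 129 and 126, a difference of 0.33 (-0.17 to 0.84). After scaling to the same median the difference of Nf1 was 0.05. Only the representative of its 3 probe sets is given here.

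In the Ras to ERK cascade, 7 of 17 tested genes were positive and 10 negative, with a median of -0.11 (-0.43 after scaling to the same median). The adjusted p passed for 0 of them by limma. At an unadjusted p under 0.05 there were 0 higher and 3 lower, Rasa3, Rasal3 and Sos1. Among all tested genes 42.3% had a negative difference, with 10.2% higher and 4.37% lower at that mark. Rasa3, a GTPase-activating protein that switches off Ras and Rap1, had signals of 326 and 157 against 64.9 and 48.0, GFP-negative cells first. Its difference was -1.76 (-2.67 to -0.84), larger in size than that of any of the 10 MAP kinase inhibitors, with an adjusted p of 0.187. Rasal3, another Ras GTPase-activating protein, and Sos1, a Ras exchange factor, were named after their values were seen and differed by -0.84 and -0.71. Another probe set of Rasal3 differed by 0.12, and those of Sos1 above the filter by -0.53 to 0.30.

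The p38 and JNK cascade was balanced, with 9 of 18 tested genes positive, 9 negative and a median of 0.00 (-0.30 after scaling to the same median, which left 3 positive). By limma 0 passed the adjusted p, and at an unadjusted p under 0.05 Mapkapk3 was higher and Map2k6 and Gadd45g were lower. All tested genes had 10.2% higher and 4.37% lower at that mark, and 42.3% with a negative difference. Map2k6, a kinase that activates p38, had signals of 414 and 330.2 against 179 and 151, a difference of -1.10 (-1.67 to -0.52). Gadd45g, which binds an upstream kinase of p38, and Mapkapk3, a kinase downstream of p38, were named after their values were seen and differed by -0.77 and 0.70.

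Genes that ERK is known to induce had a median difference of -0.20 over 20 tested genes, 6 positive and 14 negative (9 and 11 under quantile normalization, 2 and 18 with arrays scaled to the same median). By limma 0 passed the adjusted p. At an unadjusted p under 0.05 there were 0 higher and 3 lower, Egr2, Egr3 and Myc, transcription factors induced on T cell activation. Among all tested genes 42.3% had a negative difference, with 10.2% higher and 4.37% lower at that mark. Egr2 had signals of 760.2 and 955 against 421 and 364, a difference of -1.09 (-1.67 to -0.52), and its other probe set differed by -1.02. Egr3 had signals of 369 and 390.3 against 188 and 154, a difference of -1.09 (-1.63 to -0.55), and its other probe set was below the filter on dim signals, at 2.45 to 8.99. Myc, named after its values were seen, differed by -0.92. The list summed to 34327 and 34841 in GFP-negative cells against 33596 and 28592 in GFP-positive cells, so that GFP-positive replicate 2, the array of lowest Dusp6, was also the lowest of the 4 for these genes. The same array was also lowest for sums of the p38 and JNK list (13458 against 14636 to 15591) and of T cell identity genes (15816 against 17516 to 18421). It was not lowest for the Ras to ERK list (9853, against 9591 in GFP-positive replicate 1). For the other DUSP phosphatases it was highest (2115 against 1662 to 1957). The cause of the position of that array was not tested.

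**Figure D4:**
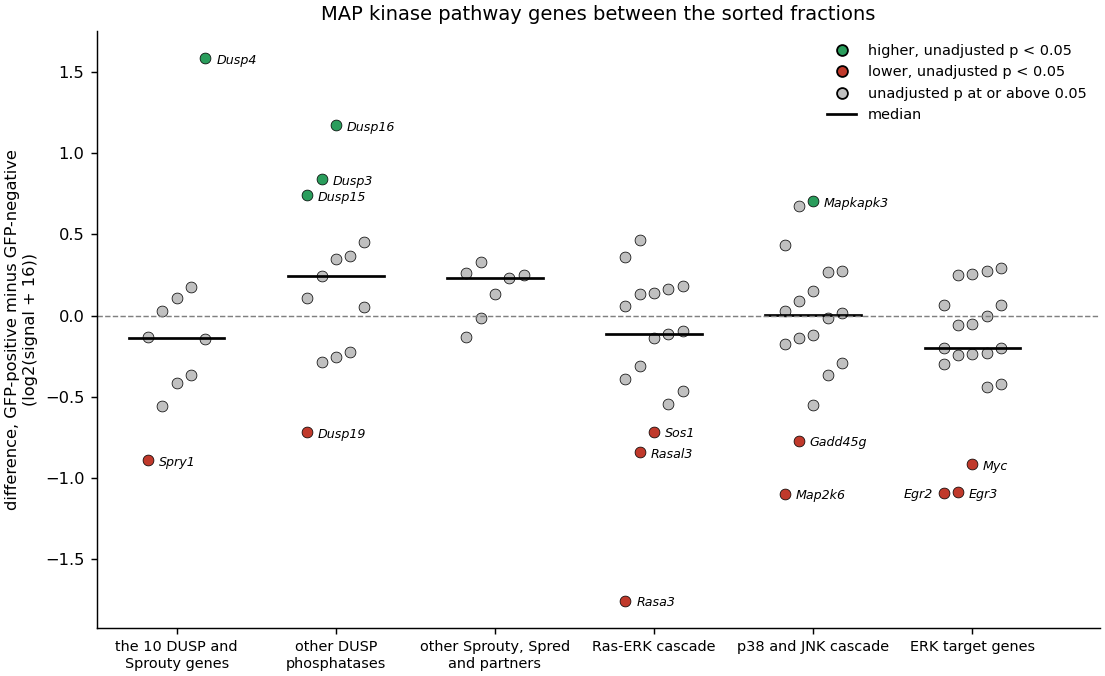
Difference between fractions (log2(signal + 16), vertical) of each tested gene in the 10 DUSP and Sprouty genes and 5 lists of the pathway; green and red points have an unadjusted p under 0.05 and are named, and bars are list medians. Dusp4 at 1.58 is the highest point and Rasa3 at -1.76 the lowest.

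**Figure D5:**
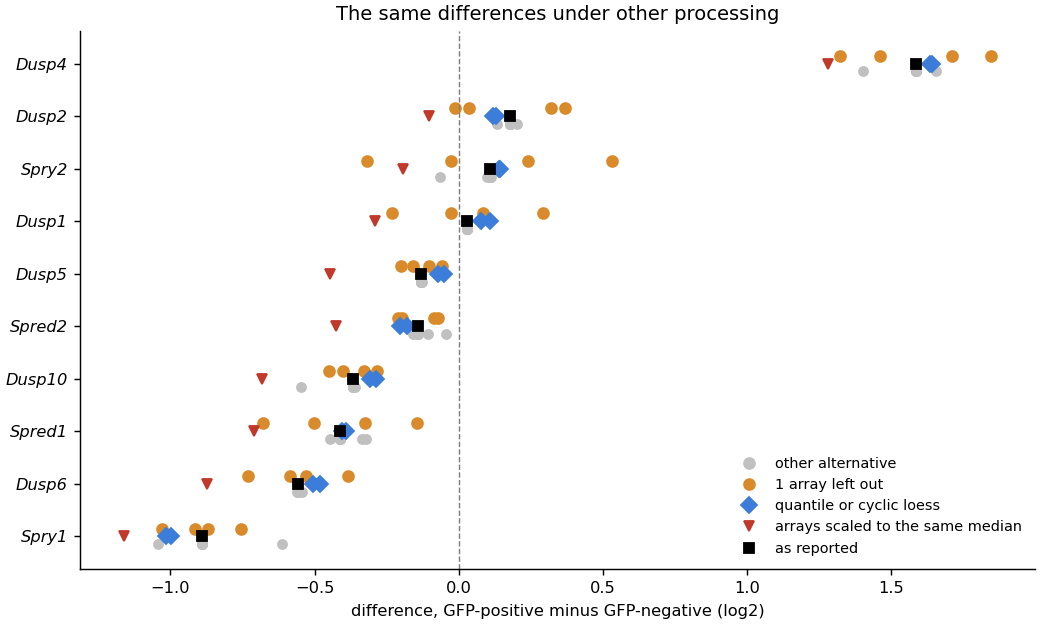
Difference between fractions (log2, GFP-positive minus GFP-negative) of the 10 genes as reported (squares), under quantile normalization or cyclic loess (diamonds), with arrays scaled to the same median (red triangles), with 1 array left out (orange circles) and under the other alternatives (grey circles). Dusp4 stays between 1.28 and 1.85 and Spry1 between -1.16 and -0.61, while Dusp1, Dusp2 and Spry2 fall on both sides of 0.

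The plot of differences under other processing shows that the order of the genes was led by Dusp4 and closed by Spry1 in the values as reported. The 6 genes that lay apart below were also apart below under quantile normalization and cyclic loess, where 21.2% and 20.7% of all tested genes did so. Scaling to the same median added Dusp1 to them, making 7 of 10, with 40.2% of all tested genes below. With the mean of all probe sets of a gene they were 5, without Spred2.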

How the data were processed

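Total RNA of sorted CD4 T cells was extracted with Trizol, biotin-labelled and hybridised to Affymetrix arrays, per the labels' protocols. The authors deposited 1 intensity per probe set on a linear scale, with software and summary method not given in the sources used here. The trimmed mean (2% off both tails) was 150 on all 4 arrays, while medians differed. Groups and replicate numbers came from the titles. The series description calls the GFP-negative cells CD4-negative once, against its title and all labels, which were followed.

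Probe sets were named through the platform annotation, which can be old: of 45101, 34945 had 1 symbol, 932 several and 9211 none, and 64 were controls, left out. A pseudocount of 16 was added before log2. Each gene took its probe set of highest mean on that scale, and was tested if that exceeded the 40th percentile over probe sets other than controls, equal to a signal of 27.3. Groups were compared two-sided with limma 3.58.1 (lmFit, eBayes) in R 4.3.3 with the Benjamini-Hochberg adjustment over all 12252 genes. Degrees of freedom were 2 (residual) and 3.74 (prior), and the script was tested on simulated data. The number of arrays limits the precision.

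The 10 genes, the lists and the rules were chosen with earlier results of these data known. Named were the 10 genes, at most 2 genes per direction of each other list that differed at least 2-fold with groups apart, the sample checks, and the 3 nearest profiles of a gene of the 10 that met that size. Of the genes this rule selects, the regulatory T cell gene Il10 differed by 1.62, Csf1r by 1.93 (signals of 7.73 and 10.7 against 35.5 and 164; other probe sets 0.09 and 0.37), Mrc1 by 1.14, Kit by 1.63 (other probe set below the filter), Epcam by 1.64 and Krt18 by 1.31. Of these, Csf1r passed the filter on dim genes only through its GFP-positive arrays. Alternatives were other pseudocounts, normalizations, filters, probe set rules, limma settings, the replicate block and leaving out each array. Promoters came from RefSeq (GRCm38.p6).

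Deviations from group means of same-numbered arrays correlated at 0.198 over genes. With 2 numbers this does not show that they share mice.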

Additional observations from a re-analysis of the deposited data

Results flagged for a closer look

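Dusp1 and Spry2 went one way in replicate 1 and the other way in replicate 2, the replicate numbers that differ in sex and in poly-A control RNA. Dusp1 differed by 0.23 within replicate 1 and by -0.18 within replicate 2. Spry2 differed by 0.67 within replicate 1 and by -0.45 within replicate 2. Each of these values rests on 1 array per fraction, and the difference between the replicate numbers was not tested.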

How the results depend on the processing

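The 10 differences were recomputed under 15 alternatives, of which 1, the mean of linear signals as the rule for probe sets and filter, was chosen after seeing the data. Dusp4, Dusp5, Dusp6, Dusp10, Spry1, Spred1 and Spred2 kept their direction in all 15. With arrays scaled to the same median Dusp1, Dusp2 and Spry2 turned to -0.29, -0.10 and -0.19, and the mean of probe sets turned Spry2 to -0.065. Without GFP-negative replicate 2 Dusp1 and Dusp2 turned to -0.03 and -0.011, without GFP-negative replicate 1 Spry2 turned to -0.03, and without GFP-positive replicate 1 Dusp1 and Spry2 turned to -0.23 and -0.32. With 1 array left out, differences ran from -0.23 to 0.29 for Dusp1, from -0.011 to 0.37 for Dusp2 and from -0.32 to 0.53 for Spry2, and the lone array of a group was assumed to vary like the others.

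The count of genes passing the adjusted p by limma was 0 and became 1 (Dusp4) with a pseudocount of 64 and with trend and robust settings, where 175 and 240 of all genes passed, against 4. Over all genes the count was 0 with a pseudocount of 1, quantile normalization, cyclic loess, scaling to the same median, no filter, the replicate block, the linear-mean rule and any 1 array left out, 6 with the mean of probe sets and 50 with the 60th percentile filter. The count at an unadjusted p under 0.05 was 2 and became 5 with arrays scaled to the same median, 4 with the mean of probe sets, 4 with trend and robust settings, and 3 (adding Dusp6) with a pseudocount of 64, the 60th percentile filter and the replicate block. The count of at least 2-fold differences with groups apart was 1 and became 2 (Dusp4 and Spry1) with a pseudocount of 1, quantile normalization and scaling to the same median, and 1 to 2 with 1 array left out. The median of the 10 genes moved from -0.14 to -0.44 with scaling to the same median, where the median over all genes shifted by -0.27. The cause of these changes was not tested.

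With the replicate number as a block Dusp4 differed by 1.58 (adjusted p = 0.122) and Spry1 by -0.89 (adjusted p = 0.177), so 0 of the 10 genes and 0 of all genes passed by limma (unadjusted p under 0.05: 1502 with a positive and 626 with a negative difference). The block changed no call at the adjusted p among these genes, and took Dusp6 past the unadjusted mark, with a 95% interval of -1.11 to -0.0023 (adjusted p = 0.287 by limma). With 2 arrays a group, and dim probe sets near the filter, small differences are beyond the reach of these data.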
